A study of Mus musculus with 5 samples.

Results

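Bcl6, Pax5, Myc, Pim1 and Cd83, genes that somatic hypermutation reaches outside the antibody loci, were examined at 680 CpGs. These are the CpGs inside a fixed window around each gene, out of 1030056 autosomal CpGs covered in all 5 libraries. The windows, in mm9 coordinates, were chr16:23962000-23992000 for Bcl6 (125 CpGs), chr4:44541000-44726000 for Pax5 (314), chr15:61813000-61825000 for Myc (63), chr17:29624000-29636000 for Pim1 (155) and chr13:43877000-43902000 for Cd83 (23). The assay was enhanced reduced representation bisulfite sequencing, which reads CpG-rich MspI fragments, applied to sorted bone marrow LSK cells (Lin- Sca1+ cKit+, the fraction with blood stem cells and early progenitors) of C57BL/6 mice. The 2 targeted libraries carry a germ line mutation of 1 gene; their titles read KO, while their genotype label reads heterozygous (+/-), so the number of mutant alleles is not stated further here. The other 3 libraries are wild type. No age is given for these libraries, and no label ties a library to its own animal; the p-values here therefore reflect only how far libraries differed, which may be technical. The cell type was not checked against marker genes, because only DNA methylation was measured.

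Somatic hypermutation is the process by which germinal-centre B cells change their antibody genes. A deaminase turns cytosine in DNA into uracil, mostly behind the start of transcribed genes, and repair then leaves mutations. Some other transcribed genes are hit as well, and the same damage can feed chromosome breaks in B cell lymphoma. Bcl6 encodes a transcriptional repressor that germinal-centre B cells need, Pax5 the factor that commits progenitors to the B lineage, and Myc a factor that drives growth and division. Pim1 encodes a serine/threonine kinase, and Cd83 a surface glycoprotein of activated B cells and dendritic cells. In bisulfite sequencing a methylated cytosine is read as C and an unmethylated one as T, so a genomic change of C to T is also read as unmethylated.

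Gene starts were located by matching the spacing of CpGs in RefSeq promoter sequences (GRCm38.p6) to the covered mm9 CpGs. The Bcl6 start matched at 23 CpGs (the next best position at 3), a second Bcl6 start at 10 (next best 2) and the Pim1 start at 36 (next best 3). The Pax5 start matched at only 5 CpGs against 3 for the next best position, so its placement is the least certain of the matched starts. Myc and Cd83 starts were not matched to a sequence. They were taken 3000 bases inside their windows, so distances from them are approximate. The first starts of the other 3 genes lay 2434 to 3730 bases inside theirs. The starts used, in mm9, were 23988938 (minus strand) and 23981369 for Bcl6, 44723566 (minus strand) for Pax5, 61816000 for Myc, 29627730 for Pim1 and 43880000 for Cd83, the last 3 on the plus strand. Exon and intron annotation was not used here.

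The 250 bases before each matched start are shown to mark which CpGs there were covered, without their levels or strands. Each is written 5′ to 3′ on the gene's own strand, from RefSeq GRCm38.p6, with CG in capitals where that CpG was covered in all 5 libraries. They lie at chr16:23988853-23989102 (minus strand, Bcl6), chr16:23981284-23981533 (minus, second Bcl6 start), chr17:29490535-29490784 (plus, Pim1) and chr4:44710695-44710944 (minus, Pax5).
Bcl6: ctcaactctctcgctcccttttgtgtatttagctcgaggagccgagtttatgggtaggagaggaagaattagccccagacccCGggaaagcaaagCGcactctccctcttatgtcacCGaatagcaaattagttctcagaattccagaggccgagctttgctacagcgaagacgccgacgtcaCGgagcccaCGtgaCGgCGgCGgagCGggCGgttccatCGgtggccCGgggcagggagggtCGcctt
Bcl6 second start: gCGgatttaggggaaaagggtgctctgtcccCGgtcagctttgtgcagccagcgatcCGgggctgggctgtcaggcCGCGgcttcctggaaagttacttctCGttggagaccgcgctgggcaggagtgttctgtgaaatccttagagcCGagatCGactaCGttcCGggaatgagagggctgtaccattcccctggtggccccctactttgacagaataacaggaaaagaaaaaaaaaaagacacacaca
Pim1: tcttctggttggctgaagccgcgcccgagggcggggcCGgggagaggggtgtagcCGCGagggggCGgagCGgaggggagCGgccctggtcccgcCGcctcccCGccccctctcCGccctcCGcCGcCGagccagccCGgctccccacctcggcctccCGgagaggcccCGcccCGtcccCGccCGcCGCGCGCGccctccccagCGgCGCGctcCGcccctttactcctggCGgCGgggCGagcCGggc
Pax5: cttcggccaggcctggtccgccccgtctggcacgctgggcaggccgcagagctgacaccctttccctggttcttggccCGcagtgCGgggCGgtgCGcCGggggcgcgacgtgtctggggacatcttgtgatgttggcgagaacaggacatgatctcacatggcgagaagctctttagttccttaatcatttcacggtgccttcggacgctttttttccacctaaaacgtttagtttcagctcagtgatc
Of the CpGs in these stretches, 13 of 21 were covered at Bcl6, 10 of 13 at its second start, 30 of 36 at Pim1 and 5 of 19 at Pax5. The Pim1 stretch is the densest in CpG and was read almost throughout, whereas the Pax5 stretch was read at a single cluster. AGCT, a palindrome that reads the same on both strands and is a known hotspot of the deaminase, was counted in the RefSeq windows that reach from 250 bases before to 50 after the start. It occurred 2 times at each Bcl6 start, 0 times at Pim1 and 5 times at Pax5, and 77.6% of 32851 such RefSeq windows hold it at least once. The C of AGCT is followed by T on both strands, so it is not a CpG and was not measured here.

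Of the CpGs that at least 1 library covered, those covered in all 5 were 125 of 128 in Bcl6, 314 of 341 in Pax5, 63 of 98 in Myc, 155 of 165 in Pim1 and 23 of 24 in Cd83. Depth differed between libraries and between windows. Total coverage, summed over strand entries, ran from 122015958 to 151634492 per library. Median coverage of a strand entry in the windows ran from 53 reads (Myc, targeted library 1) to 159.5 reads (Cd83, wild-type library 1). Over all autosomal CpGs, targeted library 1 stood slightly apart, with a mean level of 35.1%; targeted library 2 had 34.4% and the wild-type libraries 34.1 to 34.3%.

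The 5 windows had very different methylation, and the same order in every library. Mean levels per CpG ran from 0.152 to 0.335% in Pim1, 5.21 to 5.79% in Myc, 12.1 to 12.5% in Bcl6, 24.7 to 25.7% in Pax5 and 29.6 to 35.2% in Cd83. No 2 neighbours in this order overlapped in their range over libraries. Over all 5 libraries, 562 of the 680 CpGs had a mean level under 20%, 95 one over 80% and 23 one between. Close to the starts, 4 of the 5 genes were nearly unmethylated.

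**Figure D1:**
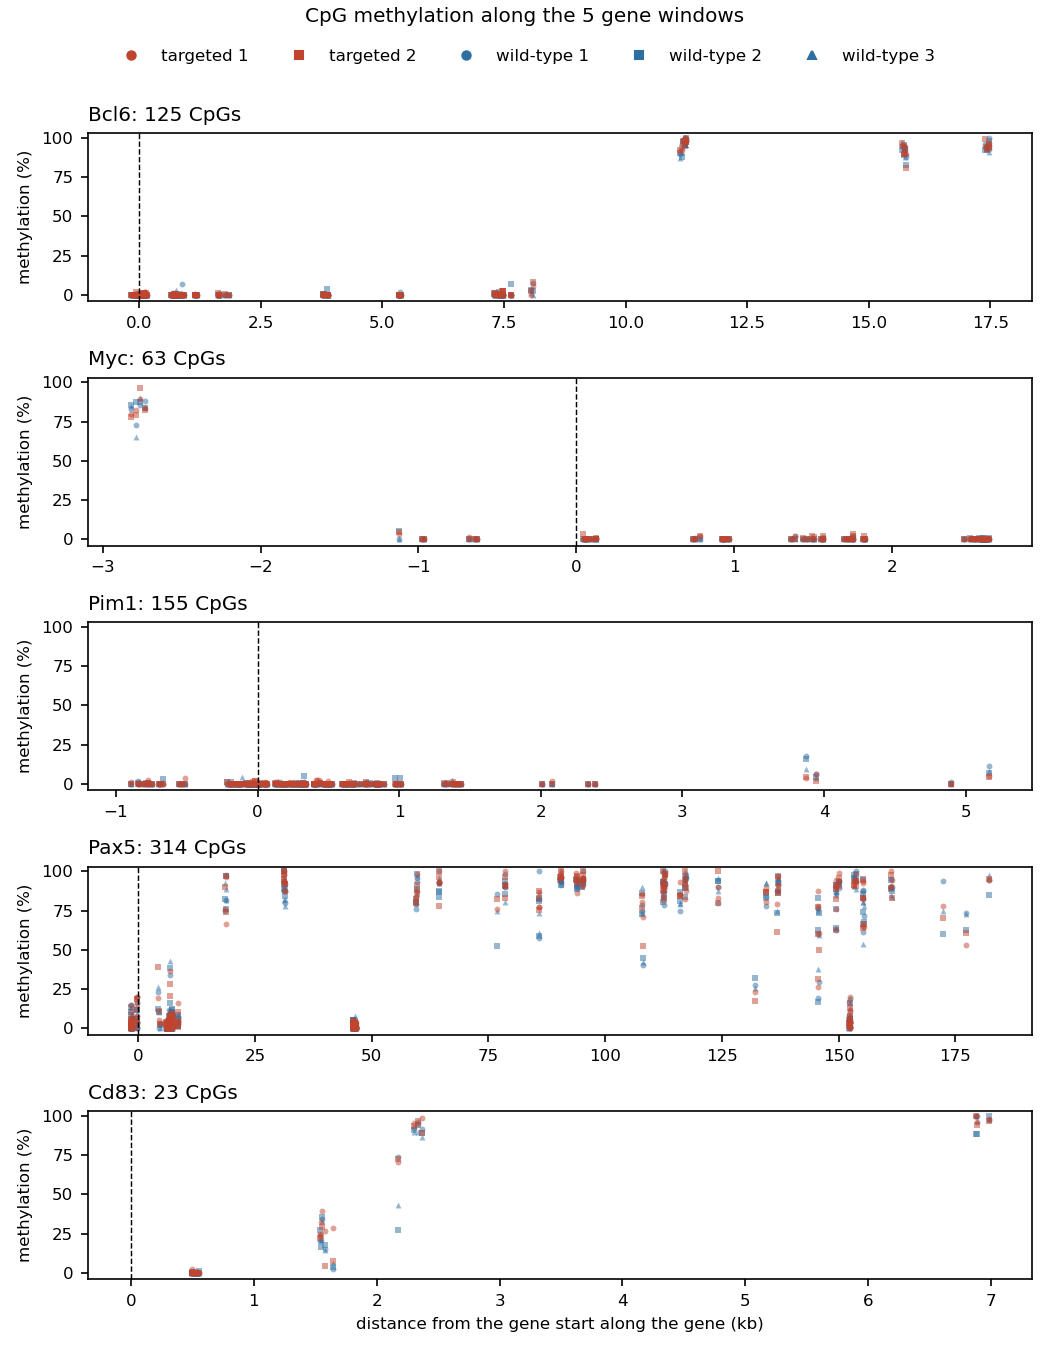
Methylation (%) of every CpG in every library, against the distance from the gene start along the gene (kb; dashed line, start), for targeted (red) and wild-type (blue) libraries. At this scale the points of both groups largely lie on each other: near 0 around the starts of Bcl6, Myc, Pim1 and Cd83, at up to 20% before the Pax5 start, and high further inside Bcl6, Pax5 and Cd83 and upstream of Myc.

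Bcl6 was split into an unmethylated front and a methylated interior in both groups. All 80 CpGs from 167 bases before to 1850 bases after the start were nearly unmethylated, with means of 0.0463% and 0.165% in targeted libraries 1 and 2, against 0.161%, 0.0177% and 0.0992% in wild-type libraries 1, 2 and 3. The CpGs on either side of the start, at 23988943 and 23988932, had no methylated read in any library. Unmethylated CpGs continued to 8095 bases after the start. Methylated blocks then followed, 11112 to 17473 bases after the start. The 7 CpGs of the first block had 97.0% and 96.1% in the targeted libraries, against 97.4%, 94.99% and 94.7% in the wild-type libraries. The change came between CpG 23980843, at 0 to 8.33% over the libraries, and CpG 23977826, at 87.2 to 92.2%, with no covered CpG between them. CpG 23980843 also had the largest difference between groups in Bcl6 (edgeR unadjusted p = 0.278, adjusted p = 0.876).

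Bcl6 means did not separate the groups. The whole window had 12.3% in both targeted libraries, against 12.5%, 12.1% and 12.1% in the wild-type libraries (exact permutation test, two-sided, p = 0.6). With 2 libraries against 3, the smallest p this test can give is 0.1, so it cannot pass 0.05. Within 1000 bases of the start (69 CpGs) the levels were 0.0537% and 0.168% in the targeted libraries, against 0.174%, 0.0205% and 0.0985% in the wild-type libraries (exact permutation p = 0.9). Around the second start (15 CpGs) they were 0.418% and 1.76% against 0.83%, 1.17% and 0.12% (exact permutation p = 0.6). The highest of these values belonged to targeted library 2 and the lowest to wild-type library 3, with the other targeted library between them. Weighting CpGs by their reads gave the Bcl6 window 24.96% in targeted library 1 against 12.2 to 13.5% in the other 4, although its mean per CpG was like theirs.

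Pax5 combined dense low islands with methylated stretches between them. Of its 314 CpGs, 226 had a mean under 20%, 18 one of 20 to 80% and 70 one over 80%. In front of the start, 23 CpGs from 1564 to 151 bases upstream had 5.05% and 3.81% in the targeted libraries, against 3.99%, 3.95% and 3.08% in the wild-type libraries. No CpG was covered in all 5 libraries between the start and 4246 bases after it, so the first stretch of the transcribed gene was not measured. From 4452 to 8475 bases after the start lay the largest group of low CpGs, 69 at means of 0.877 to 1.43% and 52 at 2.88 to 3.18%, with a single CpG at 28.1 to 43.0% between them. A dense island of 72 CpGs, 46004 to 46618 bases after the start, had 1.16% and 0.657% in the targeted libraries, against 0.716%, 0.852% and 1.13% in the wild-type libraries. Another island of 10 CpGs, 152280 to 152435 bases after the start, had 7.52% and 4.21% against 4.77%, 4.85% and 5.13%. Most CpGs between these islands were methylated, such as 8 CpGs 93858 to 95353 bases after the start, at 93.4% and 96.0% in the targeted libraries, against 95.01%, 91.8% and 93.0% in the wild-type libraries. The islands ended without a covered slope. The level passed from 90.9 to 97.6% at CpG 44570390 to 0 to 2.94% at CpG 44571131, and from 0 to 3.70% at CpG 44677562 to 77.9 to 92.0% at CpG 44692199.

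In its mean per CpG, the Pax5 window was slightly higher in both targeted libraries. Its mean was 25.7% and 25.1% in the targeted libraries, or 25.4% ± 0.421 (SD, n = 2), and 25.003%, 24.7% and 25.02% in the wild-type libraries, or 24.9% ± 0.202 (SD, n = 3). The groups did not overlap, and the exact permutation test gave p = 0.1, the smallest it can give. The difference was 0.525 percentage points with all libraries, 0.227 without targeted library 1, 0.822 without targeted library 2, and 2.43 when CpGs were weighted by reads (exact permutation p = 0.7). Weighted so, targeted library 1 had 20.6% and targeted library 2 12.03%, against 12.5%, 12.8% and 16.3% in the wild-type libraries. The weighted level of targeted library 2 was thus below every wild-type library, and the groups overlapped. Over all autosomal CpGs the level was higher in the same 2 libraries as well. The 5 CpGs within 1000 bases of the start, all on the template strand, had 10.4% and 11.2% in the targeted libraries, against 7.87%, 7.13% and 4.89% in the wild-type libraries (difference 4.19 points, exact permutation p = 0.1). The nearest of them, 44723717, had 20% and 12.5% against 3.23%, 11.8% and 2.5% on 16 to 40 reads. The 5 CpGs rest on 80 to 204 counts per library in all, and with 2000 bases on each side the difference was 0.755 points (exact permutation p = 0.5).

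Myc was unmethylated or nearly so from 1125 bases before the start to the last covered CpG. The 4 CpGs furthest upstream, 2821 to 2731 bases before the start, were methylated: the last of them, at 61813269, had 83.5% and 82.6% in the targeted libraries, against 88.5%, 84.0% and 84.5% in the wild-type libraries. The next covered CpG, at 61814875, had 3.33% and 4.55% against 0%, 5.56% and 0%. From there on, 59 CpGs over 3739 bases were all low, at means of 0.204% and 0.481% in the targeted libraries, against 0.136%, 0.192% and 0.0526% in the wild-type libraries. In this stretch each targeted library exceeded all 3 wild-type libraries, and the group means differed by 0.216 points. The largest difference of the window was upstream, at 61813179, with 80% and 77.9% against 83.3%, 85.7% and 85.2% (edgeR unadjusted p = 0.413, adjusted p = 0.876).

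Near the Myc start the same order held on very few methylated reads. The CpGs within 1000 or 2000 bases of it are among the 59 of the low stretch, so their order is not a separate observation. Within 1000 bases (22 CpGs), targeted libraries 1 and 2 had 6 of 2424 and 14 of 4007 counts methylated, and wild-type libraries 1, 2 and 3 had 3 of 3883, 1 of 3924 and 0 of 2549. A count of 0 in the last allows a level of up to 0.118%. The means per CpG were 0.265% and 0.402% against 0.0596%, 0.0258% and 0% (difference 0.305 points, exact permutation p = 0.1, the smallest possible). A read counts once for every CpG it covers, reads carried no molecular identifiers, and such limits and intervals cover counting error only. Leaving out any library kept the difference between 0.237 and 0.373 points. With 2000 bases on each side the groups did not overlap either (exact permutation p = 0.1). From the start to 2000 bases after it (35 CpGs) they did. The levels there were 0.183% and 0.623% against 0.21%, 0.0505% and 0.068% (exact permutation p = 0.2). Over the whole window, which the 4 upstream CpGs dominate, Myc had 5.52% and 5.79% against 5.37%, 5.65% and 5.21%, and the groups overlapped (exact permutation p = 0.3).

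Pim1 had a mean level under 20% at every covered CpG and was nearly unmethylated around its start. Its 155 CpGs ran over 6061 bases, from 895 bases before to 5166 after the start, and 97 of them had no methylated read in any library. The window mean was 0.258% and 0.152% in the targeted libraries, against 0.304%, 0.335% and 0.257% in the wild-type libraries (exact permutation p = 0.3). Within 1000 bases of the start (137 CpGs) the levels were 0.171% and 0.0864% against 0.075%, 0.146% and 0.118% (exact permutation p = 0.7). The groups overlapped in both. The CpGs next to the start on either side, at 29627729 and 29627741, had 0 methylated reads in every library.

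Cd83 rose from unmethylated to methylated within its first 2304 bases. The 11 CpGs 496 to 553 bases after the start had 0.316% and 0% in the targeted libraries, against 0.219%, 0.166% and 0% in the wild-type libraries (exact permutation p = 1.0); the count of 0 allows up to 0.0836% in targeted library 2 and 0.195% in wild-type library 3. The 3 CpGs 1535 to 1559 bases after the start had 32.4% and 25% against 25.2%, 26.4% and 26.5%. The 3 CpGs 2304 to 2372 bases after the start had 96.3% and 93.2% against 93.3%, 91.5% and 88.7%, and the last 3, 6879 to 6984 bases after it, had 98.1% and 97.0% against 99.0%, 92.3% and 98.3%. The window mean was 35.2% and 31.7% in the targeted libraries, against 32.5%, 29.6% and 30.6% in the wild-type libraries (difference 2.56 points, exact permutation p = 0.3). Of the 5 window means, it is the one that leaving out 1 library moved most: without targeted library 1 the difference was 0.823 points, without targeted library 2 it was 4.31 points, and weighting by reads made it 7.19 points. Weighted so, targeted library 1 had 41.5% and targeted library 2 15.7%, against 17.9%, 18.9% and 27.4% in the wild-type libraries. The weighted level of targeted library 2 was the lowest of all.

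**Figure D2:**
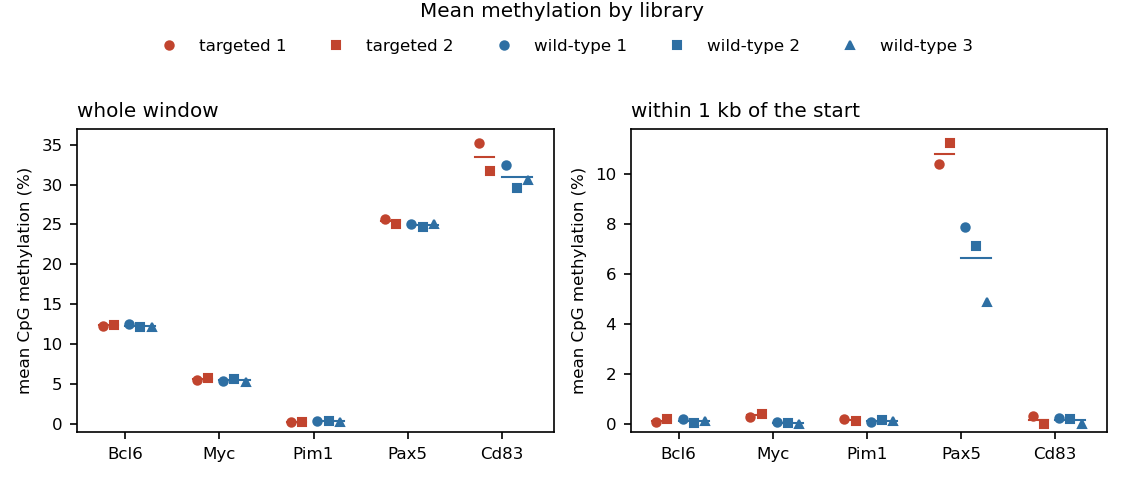
Mean CpG methylation (%) of each library over the whole window (left) and within 1000 bases of the start (right), with a line at the mean of each group. The libraries of a gene lie close together except in Cd83 (29.6 to 35.2%, left) and in Pax5 near its start (4.89 to 11.2%, right), which rests on 5 CpGs.

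No CpG or tile of the 5 genes was called different between the groups. CpGs with both methylated and unmethylated reads entered edgeR's quasi-likelihood test, fitted and adjusted over all 757413 such autosomal CpGs, and 466 of the 680 CpGs could be tested. Of these, 0 met the call (adjusted p under 0.05 with a change of 25 points or more) (background, 0.00885% of autosomal CpGs), and the lowest adjusted p in the windows was 0.876. Of 48 tested tiles of 1000 bases with at least 3 CpGs, 0 met theirs (the same p with 10 points or more) (background, 0.0166%), with a lowest adjusted p of 0.789. With limma on log2 ratios, 0 CpGs (background 0.00489%) and 0 tiles (background 0%) were called too. At such backgrounds, sets of 466 CpGs and 48 tiles would seldom hold a call, so these counts of 0 do not set the genes apart from other regions.

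Without adjustment, the share of CpGs past the threshold in these genes was close to that of all CpGs. At an unadjusted p under 0.05, edgeR had 14 of the 466 CpGs (3.004%, background 2.97%), of which 12 were higher in the targeted libraries (background 2.29%) and 2 lower (background 0.679%). At the same unadjusted threshold limma had 25 (background 5.24%). By gene, edgeR had 9 in Pax5, 3 in Pim1, 1 each in Myc and Cd83 and 0 in Bcl6. The targeted libraries both exceeded every wild-type library at 45 CpGs (background 10.6%, here 9.66%) and were both below every one at 25 (background 4.99%, here 5.36%). Among tiles, 6 of 48 (12.5%) had an unadjusted p under 0.05 with edgeR, all higher (background 5.34% higher, 6.32% in both directions). That share was above the background but rests on 6 tiles. With limma 5 tiles passed the same unadjusted threshold (background 6.48%). The groups did not overlap at 10 tiles with the targeted libraries higher (background 17.2%, here 20.8%) and at 0 with them lower (background 5.23%). The median difference was 0.218 points over the 466 CpGs and 0.304 points over the 48 tiles.

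The CpG with the smallest p in Pim1 was lower in the targeted libraries. At 29631603, which lies 3873 bases after the start, 5 of 144 and 7 of 166 reads were methylated in the targeted libraries, and 34 of 192, 26 of 162 and 17 of 183 in the wild-type libraries. The levels were 3.47% and 4.22% against 17.7%, 16.05% and 9.29%, a difference of -10.5 points between 3.84% ± 0.527 (SD, n = 2) and 14.3% ± 4.46 (SD, n = 3). The groups did not overlap (edgeR unadjusted p = 0.00619, adjusted p = 0.876), and the difference stayed negative in all 9 alternatives (unadjusted p 0.00208 to 0.0389, adjusted p 0.865 to 0.927). Wild-type libraries 1 and 2 read this CpG on the plus strand only, and 10 to 27 reads of the other 3 libraries were from the minus strand. On the plus strand alone the levels were 3.79% and 3.21% against 17.7%, 16.05% and 8.33%. The covered neighbour at 29631676, chosen after its values were seen, had 6.21% and 1.78% against 6.38%, 4.65% and 3.82%, and there the groups overlapped.

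The CpG with the smallest p in Cd83, at 43881642 in the zone where methylation rises, rested on 1 library. Targeted library 1 had 28.6% of 77 reads (Wilson 95% interval 19.7 to 39.5%), targeted library 2 had 7.62% of 105, and the wild-type libraries had 2.65% of 113, 4% of 100 and 6.49% of 154. The unadjusted p of edgeR was 0.00621 (adjusted 0.876). Without targeted library 1 it was 0.397, with a difference of 3.24 points in place of 13.7. The CpG 43881577 of the same zone, chosen after its values were seen, had 26.5% in targeted library 1 against 4.29% in targeted library 2; wild-type libraries had 14.5 to 17.6%. The largest difference of the window was at 43882173, with 70.8% and 72.2% against 73.9%, 27.3% and 43.3%, on only 11 to 30 reads (unadjusted p = 0.163, adjusted p = 0.876, edgeR).

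In Pax5 the smallest p fell in the low region behind the start. CpG 44716598 had 8.33% and 7.06% in the targeted libraries, against 2.86%, 1.22% and 0.704% in the wild-type libraries (unadjusted p = 0.00873, adjusted p = 0.876, edgeR), so the groups did not overlap. The 9 Pax5 CpGs with an unadjusted p under 0.05 (3.10% of those tested there, background 2.97%) were all higher in the targeted mean; over all autosomes 17379 of 22522 such CpGs were higher too. The Pax5 CpG with the largest difference, 44615497, had 70.8% and 52.2% against 40.6%, 44.8% and 42.4%, on 23 to 59 reads (unadjusted p = 0.157). Among Pax5 tiles, the one with the smallest p was 44692001 to 44693000, with 93.1% and 94.7% of pooled counts methylated against 90.7%, 89.6% and 87.9% (unadjusted p = 0.0119, adjusted p = 0.789, edgeR).

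In Myc and Bcl6 the CpGs with the smallest p were methylated in targeted library 2 alone. At Myc CpG 61816044, 44 bases after the start used, 4 of 110 reads were methylated in that library (3.64%, Wilson 95% interval 1.42 to 8.98%) and 0 of 100 to 142 reads in each of the others, where 0 allows up to 2.11 to 3% (unadjusted p = 0.0256, adjusted p = 0.876, edgeR). At Bcl6 CpG 23981464, near the second start, it was 3 of 109 reads (2.75%) against 0 in each of the others, where 0 allows up to 1.88 to 2.88% (unadjusted p = 0.0527, adjusted p = 0.876, edgeR). The next CpGs in this Bcl6 stretch, at 23981453, 23981458 and 23981470, had 2.70 to 2.73% in the same library and 0% in the others; they are close enough to be read on the same molecules.

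A pair of neighbouring Myc tiles covered the start region, and pooled methylation in both was above the wild-type libraries in both targeted libraries. Tile 61815001 to 61816000 (5 CpGs) had 2 of 508 and 3 of 854 counts methylated in the targeted libraries, against 0 of 862, 0 of 833 and 0 of 521 in the wild-type libraries (unadjusted p = 0.00566, adjusted p = 0.789, edgeR). The targeted levels were 0.394% and 0.351%, and the wild-type counts of 0 allow levels about as high. Tile 61816001 to 61817000 (17 CpGs) had 0.209% and 0.349% against 0.0993%, 0.0324% and 0%, with an unadjusted p of 0.00732 (adjusted 0.789); it was chosen after its values were seen. These are 2 of the 5 Myc tiles. Their CpGs are those within 1000 bases of the start, so the tiles are not a separate observation. In the other genes, the tile with the smallest p had an unadjusted p of 0.0313 in Cd83, 0.183 in Bcl6 and 0.43 in Pim1.

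**Figure D3:**
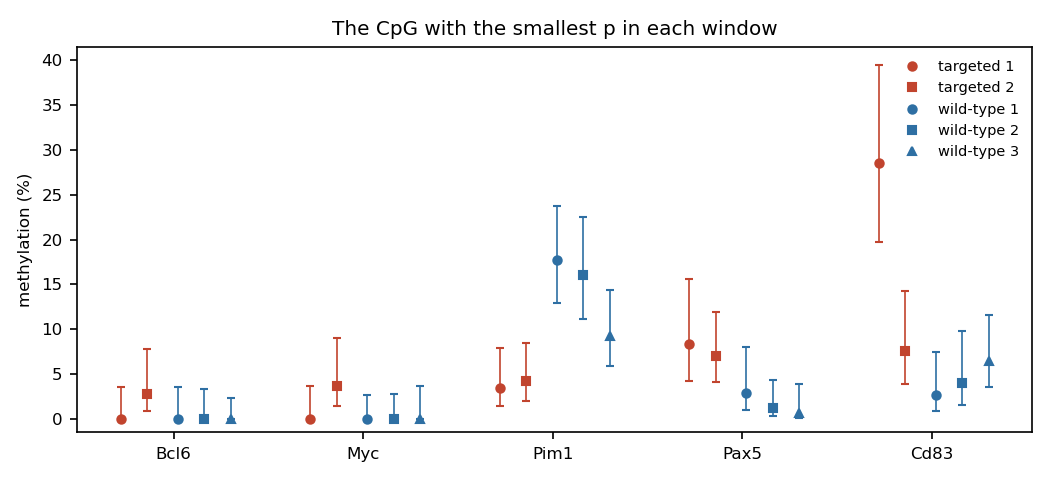
Methylation (%) in each library at the CpG with the smallest unadjusted p of each window, with Wilson 95% intervals that cover counting error only. Wild-type libraries lie above both targeted ones at the Pim1 CpG (9.29 to 17.7% against 3.47 and 4.22%) and below them at the Pax5 CpG, and a single targeted library stands out at the Bcl6, Myc and Cd83 CpGs.

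Both strands of a CpG were read at 195 of the 680 CpGs, which lets the coding strand (the one with the sequence of the transcript) be set against the template strand. A CpG that had lost its C on 1 strand, with the other strand still methylated, would read as unmethylated on the first strand only. Were the other strand to lose its methylation later, as after replication, both would read alike. Strands that read alike therefore do not tell whether such a C was changed. In the mean of the 5 libraries, 0 of the 195 CpGs differed by more than 20 points between strands, against 3.19% of 266576 such autosomal CpGs. Only 16 of the 195 were methylated over 80%, 7 of them in Bcl6, 7 in Pax5 and 2 in Cd83, and most of the others were nearly unmethylated on both strands. In single libraries the largest strand difference was 19.8 points in Pax5 and 10.2 points in Bcl6. In the mean of the libraries the largest was 5.56 points, at Pax5 CpG 44663979, with 79.1% on the coding and 84.7% on the template strand. In the wild-type libraries that difference was -8.88 points and in the targeted libraries -0.584 points.

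Near the starts the strands differed by less than 1 point at Bcl6, Myc, Pim1 and Cd83. Both strands were nearly unmethylated there, so their means had little room to differ. A C lost on 1 strand could not be seen at such CpGs. At Bcl6 (17 CpGs), coding minus template was 0 and -0.478 points in the targeted libraries, against 0.182, 0.0428 and -0.0934 points in the wild-type libraries (exact permutation p = 0.3). At Myc (12 CpGs), it was -0.0748 and -0.191 points against -0.0703, -0.0548 and 0 points. The targeted libraries lay below the wild-type ones there (exact permutation p = 0.1), and with 2000 bases on each side the sign turned, to a group difference of 0.102 points. At Pim1 (38 CpGs), it was -0.15 and 0.0437 points against -0.354, -0.0189 and -0.0594 points (exact permutation p = 0.7). At Cd83 (7 CpGs), it was -0.0645 and 0 points against -0.148, -0.132 and 0 points (exact permutation p = 0.5). At Pax5 no CpG within 1000 bases was read on both strands. Within 2000 bases of the Pax5 start, at 14 CpGs, the difference was 0.652 and 1.68 points against 0.819, 0.43 and 0.333 points (exact permutation p = 0.3).

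**Figure D4:**
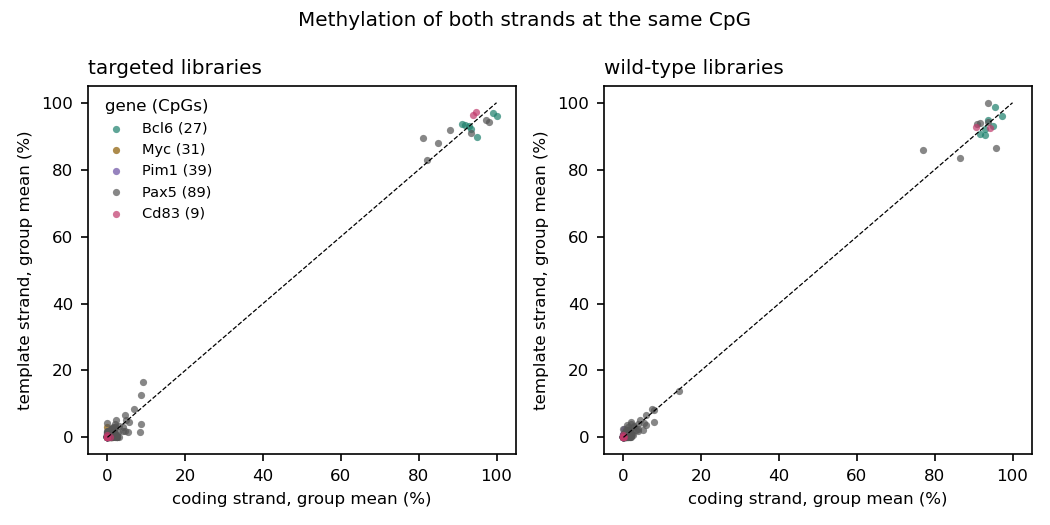
Methylation (%) on the template strand against the coding strand at the 195 CpGs read on both strands, as the mean of the targeted libraries (left) and of the wild-type libraries (right); the dashed line marks equality. Points cluster at the 2 ends of the line in both groups, and the largest strand difference in the mean of all libraries is 5.56 points.

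Reads with a base other than C or T at a CpG cytosine were rare in all 5 genes. Over all autosomal strand entries their share was 0.0212 to 0.0224% per library. Near the starts they amounted to at most 10 reads in any gene and library. Within 1000 bases, Bcl6 had 0 and 2 such reads in the targeted libraries, against 2, 1 and 2 in the wild-type libraries, Myc had 3 and 2 against 1, 3 and 3, and Pim1 had 4 and 5 against 10, 6 and 6. Cd83 had 0 and 1 against 1, 2 and 1, and Pax5 had none in any library, on 80 to 204 reads. The exact permutation p of these 5 comparisons was 0.2 to 1.0. In Cd83 both targeted shares (0% and 0.0279%) lay below the 3 wild-type shares (0.0323%, 0.0766% and 0.0648%), on 0 to 2 such reads per library, and in the other genes the groups overlapped. In the deposited tables C and T together never fall below 90.03% of the reads at a position, so sites with many other bases would not appear.

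Over the whole windows, the groups did not overlap in this share in Pax5, where the targeted libraries were above the wild-type ones, and in Pim1, where they were below. Pax5 had 10 of 35422 and 10 of 48315 reads with another base in the targeted libraries (0.0282% and 0.0207%) and 6 of 45368, 5 of 46535 and 4 of 40208 in the wild-type libraries (0.0132%, 0.0107% and 0.00995%). The exact permutation p was 0.1, the smallest it can give, and the Wilson 95% intervals of the targeted libraries (0.0153 to 0.052% and 0.0112 to 0.0381%) overlapped those of the wild-type libraries (0.00606 to 0.0289%, 0.00459 to 0.0252% and 0.00387 to 0.0256%). The targeted values lie close to the autosomal share and the wild-type values below it. Pim1 had 0.0238% and 0.0198% in the targeted libraries, against 0.0487%, 0.02377% and 0.0309% in the wild-type libraries (exact permutation p = 0.2), with targeted library 1 and wild-type library 2 nearly equal. Myc had 0.0847% and 0.0554% in the targeted libraries, against 0.0303%, 0.0493% and 0.0656% in the wild-type libraries, on 3 to 6 such reads each, and its groups overlapped.

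**Figure D5:**
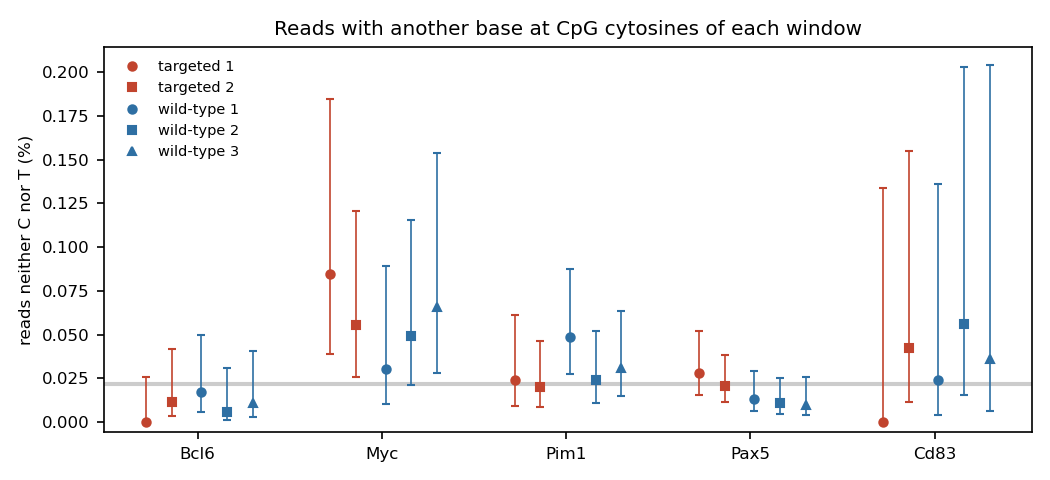
Share of reads (%) that were neither C nor T at the CpG cytosines of each window in each library, with Wilson 95% intervals; the grey line spans the autosomal share of the libraries (0.0212 to 0.0224%). Intervals reach the grey line except for 3 Myc libraries and 1 Pim1 library, which lie above it, and only in Pax5 do the 2 targeted values lie above all 3 wild-type values.

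Other genes known to be hit by hypermutation were counted in the same way. Of 12 that were listed, 5 starts could be placed (Btg1, Btg2, Irf4, Cxcr4 and Socs1). Their 294 CpGs within 1000 bases included 116 that could be tested. Of these, 0 were called by edgeR (background 0.00885%) and 0 had an unadjusted p under 0.05 (background 2.97%). With limma 0 were called (background 0.00489%) and 4 had an unadjusted p under 0.05 (background 5.24%). Btg1, Btg2, Cxcr4 and Socs1 had mean levels of at most 0.405% in every library, and Irf4 had 12.8% and 12.4% in the targeted libraries, against 10.4%, 12.5% and 12.4% in the wild-type libraries.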

How the data were processed

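DNA methylation was measured in 5 libraries of sorted LSK cells. Per the labels' protocols, MspI fragments of 150 to 400 bp were bisulfite-converted and read as single ends of 50 bp. Per the submitters' processing notes, the aligner was Bismark and the genome mm9 (NCBIM37); a version is not stated in the sources used here. The deposited tables list, per the file headers, the coverage count of each CpG cytosine by strand, which is not normalized. They also give the percent of reads with C and with T, deposited by the authors. The lowest coverage in them is 10 reads.

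Percent C times coverage lay within 0.01 of a whole read for 99.967 to 99.972% of entries, and methylated and unmethylated reads were recovered by rounding. The highest 0.1% of coverage per library was left out, both strands of a CpG were merged, and CpGs covered in all 5 libraries were kept. The quasi-likelihood test of edgeR 4.0.16 (R 4.3.3) had 1 term per library and 1 dispersion for all units. It was fitted over all autosomal CpGs, and over tiles of 1000 bp with at least 3 CpGs, with Benjamini-Hochberg adjustment. It was tested on simulated data first. Means per library were compared with two-sided exact permutation tests (Python 3.11.15). Alternatives were limma 3.58.1 with 1 read added to each count, a coverage minimum of 20, no upper coverage limit, each library left out, a replicate block, weighting by reads, other distances and other tiles.

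CpGs were named by rule: in each window, called CpGs, the smallest p, the largest difference, those nearest the start and those where the level changes from under 20% to over 80%; likewise called tiles and the tile with the smallest p. The genes and lists were chosen with earlier results of these data known. The targeted gene is not reported here.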

Additional observations from a re-analysis of the deposited data

How the results depend on the processing

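All alternatives, including each library left out and limma, gave 0 called CpGs and 0 called tiles in the windows. Of 19 differences between groups computed with alternatives, 12 were not reversed in any of them. They include the share of other bases near Pax5, whose difference of 0 has no sign. Signs turned for the level near the start in Pim1 with 0 to 2000 bp after the start (-0.00398 points) and in Cd83 with the replicate block (-0.0341 points), and for the strand difference of Myc with 2000 bp on each side (0.102 points). The share of other bases near Pax5 moved from 0 to -0.00688 points with 2000 bp on each side. Leaving out each library gave, near the start, -0.044 to 0.0700 points in Bcl6, -0.0266 to 0.0579 in Pim1 and -0.128 to 0.188 in Cd83. It gave -0.0142 to 0.188 points for the strand difference of Pim1, and -0.015 to 0.00283 in Bcl6 and -0.0162 to 0.0432 in Myc for the share of other bases. The difference of the Bcl6 tile 23981001 to 23982000 ran from -0.203 points (without targeted library 2) to 0.956 points. The cause of these changes was not tested. With a coverage minimum of 20, no CpG was left near the Pax5 start.

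Deviations of same-numbered libraries from their group means did not correlate (r = -0.0149 for number 1 and -0.00341 for number 2, over 68753 CpGs). The deviations of the 2 targeted libraries mirror each other, so these r values are not separate checks. They cannot show whether same-numbered libraries shared more than a label. The edgeR fit with the replicate block, on libraries 1 and 2 of each group, called 0 CpGs and 0 tiles in the windows. At an unadjusted p under 0.05 it had 11 of 451 CpGs (all autosomes, 15440 of 730889). Among tiles it had 4 of 48 (all autosomes, 5260 of 90249). Depth limits single CpGs most: 0 of 100 reads allows a level of up to 3%.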
